A study of Mus musculus with 6 samples.

Results

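The genes of the matrix metalloproteinase (Mmp), Adam and Adamts protease families and of their inhibitors, Timp1 to Timp4 and Reck, were examined in the murine lung cancer line 344SQ. Members were the probe sets annotated with exactly 1 gene symbol that begins with Mmp, Adam or Adamts and a digit, or is a Timp gene or Reck. They were 117 of the 45101 probe sets on the array and 66 of the 18193 genes tested: 18 Mmp, 28 Adam and 15 Adamts genes, and 5 inhibitor genes. No filter on low values was applied, so all 66 entered the test. The control group was 3 arrays of 344SQ cells with a control short hairpin RNA (shRNA). The other group was 3 arrays of 344SQ cells with an shRNA that targets Pik3ca, the gene of p110-alpha, a catalytic subunit of phosphoinositide 3-kinase. Both were grown in medium with serum, and the hairpin vectors were introduced by transfection with Lipofectamine-Plus. The labels used here give no time after transfection, no clone and no source of the replicates, so the p-values reflect only how far these arrays scatter, which may be technical.

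MMPs are secreted or membrane-bound zinc proteases that cut collagens, laminins and other matrix proteins, and a propeptide keeps them inactive until it is removed. ADAM proteases sit in the plasma membrane and release the outer parts of other membrane proteins, whereas ADAMTS proteases are secreted and trim proteoglycans and procollagens. TIMPs bind and block the active site of these enzymes, TIMP3 being bound to the matrix and acting on ADAM and ADAMTS proteases as well as MMPs, and RECK is a membrane-anchored inhibitor of several MMPs. In lung carcinoma these genes are studied for their part in invasion. Many Mmp genes of the cluster on mouse chromosome 9 have promoters with a TATA box and a motif of the transcription factor AP-1.

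Promoters are shown for 4 genes that the results turn on: Mmp13 and Mmp10, which rose, their cluster neighbour Mmp3, which fell, and Timp3. Of the members, Timp3 had the largest change as defined below. Each run is the 150 bases before the gene start from RefSeq (build GRCm38.p6), written 5′ to 3′. Capitals mark the AP-1 letters TGANTCA, which read the same on both strands, and the TATA letters TATAAA, searched on both strands.
Mmp13, chr9:7272364-7272513, + strand: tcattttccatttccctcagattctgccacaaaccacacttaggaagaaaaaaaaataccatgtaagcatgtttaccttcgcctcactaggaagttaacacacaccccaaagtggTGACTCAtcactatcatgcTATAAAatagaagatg
Mmp10, chr9:7502192-7502341, + strand: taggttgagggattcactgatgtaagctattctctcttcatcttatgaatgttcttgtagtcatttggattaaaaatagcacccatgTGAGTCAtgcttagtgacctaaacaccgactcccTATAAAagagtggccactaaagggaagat
Mmp3, chr9:7445672-7445821, + strand: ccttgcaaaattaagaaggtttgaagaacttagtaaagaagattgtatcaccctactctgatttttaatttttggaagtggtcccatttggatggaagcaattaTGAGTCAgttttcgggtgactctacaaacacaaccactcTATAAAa
Timp3, chr10:86300262-86300411, + strand: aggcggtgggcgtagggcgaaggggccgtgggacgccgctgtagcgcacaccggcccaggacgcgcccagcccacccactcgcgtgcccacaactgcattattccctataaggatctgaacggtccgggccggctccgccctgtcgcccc

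The AP-1 letters begin 35 bases before the start of Mmp13, 63 before that of Mmp10 and 46 before that of Mmp3. Neither motif was in the Timp3 run, which says only that these letters are not in it. Windows of 300 bases, 250 before to 50 after a gene start, were held for 38 of the 66 members. AP-1 letters were in a window of 11 of these 38 genes (28.9%), against 8.97% of the 27025 genes with a window and 7.81% of all 32851 windows. Within the chromosome 9 cluster 8 of 9 measured genes had them, all but Mmp8, and Mmp12 had them only at an alternative start. In Mmp20 the letters were TGAATCA, and in the others TGAGTCA or TGACTCA. Outside the cluster 3 of 29 members did (10.3%). TATAAA was in a window of all 9 cluster genes, against 15.7% of all genes with a window and 13.6% of all windows. In Mmp8 it was only on the opposite strand, and in Mmp12 only after an alternative start, so not all 9 had it upstream in the direction of the gene. The 2 motifs do not overlap in the runs shown, and a match is a description of letters, not a measured binding site.

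Intensities below are on a linear scale after the 6 arrays were brought to a common median. A change is PIK3CA shRNA minus control shRNA in log2(intensity + 16), which understates the change of dim genes. A gene is read by its brightest probe set unless probe sets are named. Adjusted p-values are two-sided limma p-values, adjusted over all genes tested by the Benjamini-Hochberg method, with a threshold of 0.05.

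Pik3ca, the check of the labels, read 2450, 2326 and 2364 on the control arrays and 1249, 1236 and 1220 on the PIK3CA shRNA arrays. It was at 51.9% of control (limma adjusted p = 0.000754), and 5 of its 6 probe sets were lower on each PIK3CA shRNA array than on any control array. Pearson's r between arrays was 0.982 to 0.984 within groups and 0.974 to 0.977 between groups. The epithelial markers Krt8, Krt18, Krt19 and Cdh1 were bright, for example Krt8 at 11904 ± 320 in control cells (SD, n = 3), while the lung lineage markers Nkx2-1 and Sftpc had control means of 116 and 94.2. Epcam and Cldn4, with control means of 467 and 82.2, were also dimmer. Of the 8 epithelial markers 0 passed by limma. At an unadjusted p under 0.05 there was 1, Epcam, at 78.9% of control with overlapping groups. The summed intensity of 8 fibroblast markers was 718 to 742 on control and 515 to 793 on PIK3CA shRNA arrays, with 1 of the 8, Dcn, lower. That of 7 leukocyte markers was 702 to 909 and 741 to 860, and that of 5 endothelial markers 579 to 642 and 607 to 736. All of these ranges overlapped between groups, but a sum is led by its brightest markers. Of the 5 endothelial markers 0 passed, while 3 (60%) did not overlap between groups, against 33.1% of all genes. Pecam1 was lower (control mean 67.4, PIK3CA shRNA mean 33.7), and Cdh5 (67.6 and 100) and Kdr (351 and 398) were higher. Of the 8 fibroblast markers, 7 had a change below 0, and 2 (25%), Dcn and Lum, were lower without overlap. The part of such cells in the results was not tested. In RNA from a whole culture, fewer cells of a type and less RNA per cell cannot be told apart.

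Of the 66 genes, 4 rose in PIK3CA shRNA cells (Timp3, Mmp13, Mmp10 and Adam32) and 3 fell (Reck, Adamts9 and Mmp3), with 59 not past the threshold. This was 10.6% of the members, against 11.5% of all genes. Members called higher were 6.06% against 5.87% of all genes, and members called lower were 4.55% against 5.63%. The median change of the members was 0.04 and that of all genes -0.01. The 2 groups of arrays did not overlap for 15 members, 9 higher and 6 lower (22.7%), against 33.1% of all genes, of which 16.1% were higher and 17% lower. At an unadjusted limma p under 0.05 there were 14 members, 8 higher and 6 lower, against 25.9% of all genes (12.7% higher and 13.2% lower). The share of members past the adjusted threshold was near that of all genes, and the share whose groups did not overlap was below it.

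**Figure D1:**
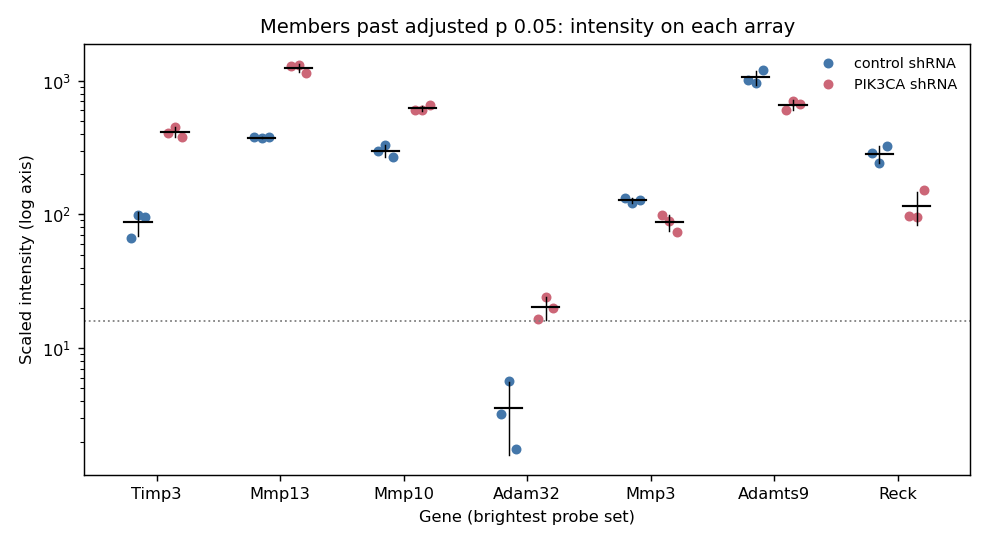
Scaled intensity (log axis) of the 7 members past the limma threshold on each control shRNA array and each PIK3CA shRNA array (3 each), with mean and SD; the dotted line marks the pseudocount of 16. The groups do not overlap for any of the 7, and Adam32 lies near or under the pseudocount in all arrays.

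**Figure D2:**
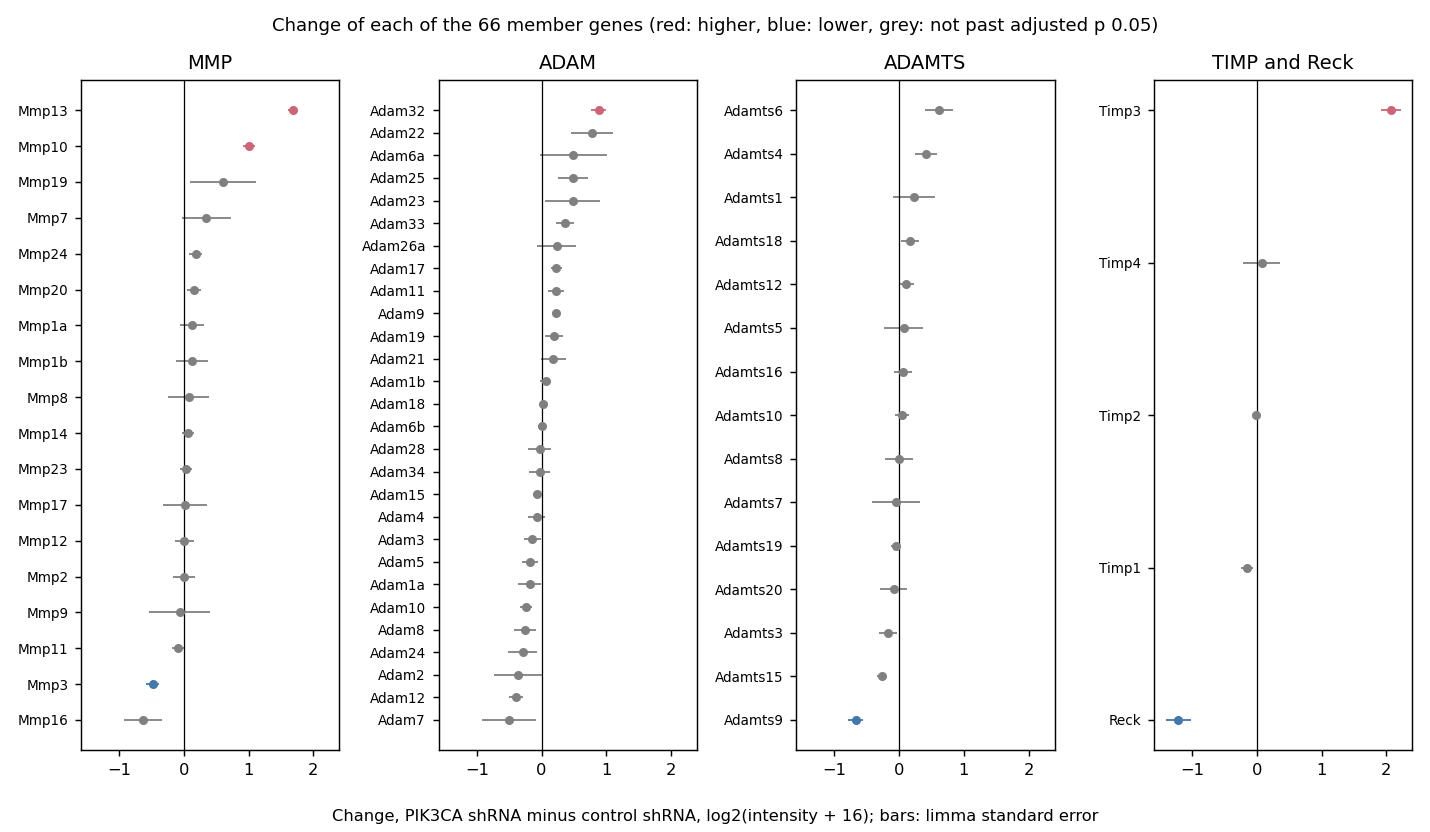
Change of each of the 66 genes between PIK3CA shRNA and control shRNA, in log2(intensity + 16), by family, with the limma standard error as bars; red points passed the threshold as higher, blue as lower, grey did not pass. Most genes lie near 0, and the ends are Timp3 at 2.07 and Reck at -1.21.

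By change in log2(intensity + 16), the inhibitors held both the largest rise and the largest fall of the 66 genes. By the ratio of means, 2 dim genes went further: Adam32 at 5.66 times control, and Adam7 at 36.7% of control with overlapping groups. Timp3 read 66.7, 98.9 and 96.0 on the control arrays and 409, 453 and 382 on the PIK3CA shRNA arrays. Each PIK3CA shRNA array was far above each control array. Its mean went from 87.2 ± 17.8 to 415 ± 35.8 (SD, n = 3 each), which is 4.76 times control. Its change of 2.07 (standard error 0.15, limma adjusted p = 0.00176) had rank 72 among all 18193 genes by size of change.

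All 4 Timp3 probe sets were higher on each PIK3CA shRNA array. In a separate limma fit of all 45037 probe sets that are not controls, 3 of them passed, with changes of 2.53, 2.07 and 0.76. The 4th had a change of 2.24 and an adjusted p of 0.0854. Its control arrays were widely spread, at 68.0, 26.1 and 183, against 421, 405 and 389 with PIK3CA shRNA. The probe set with the largest change went from 9.48 ± 4.02, below the pseudocount, to 132 ± 26.9 (SD, n = 3 each). The probe sets shared a direction, and the size of the change depended on which was read.

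Reck read 289, 242 and 324 on the control arrays and 97.5, 96.2 and 153 on the PIK3CA shRNA arrays. The groups were well apart, with PIK3CA shRNA replicate 3 the highest of its group. Its mean fell from 285 ± 40.9 to 115 ± 32.3 (SD, n = 3 each), or 40.5% of control, a change of -1.21 (standard error 0.20, limma adjusted p = 0.0184). The call was lost without control replicate 1 (adjusted p = 0.0680), control replicate 3 (0.0663), PIK3CA shRNA replicate 1 (0.0675) or PIK3CA shRNA replicate 2 (0.0600). Reck had 1 probe set.

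The other Timp genes did not pass. Timp2, whose protein also takes part in MMP2 activation at the cell surface, read 5126, 5384 and 5133 in control and 5265, 5095 and 5197 in PIK3CA shRNA cells. The groups overlapped, and the change of -0.01 had a 95% interval of -0.15 to 0.13. Its 6 probe sets ran from -0.39 to 0.54, and none passed the limma fit of all probe sets. The groups did not overlap for those at -0.39 (adjusted p = 0.132) and -0.11 (0.498), both lower with PIK3CA shRNA. Timp1 was at -0.15 (interval -0.39 to 0.08) and Timp4 at 0.08 (interval -0.64 to 0.79). The interval of Timp2 is narrow, while that of Timp4 leaves room for a sizeable change either way.

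**Figure D3:**
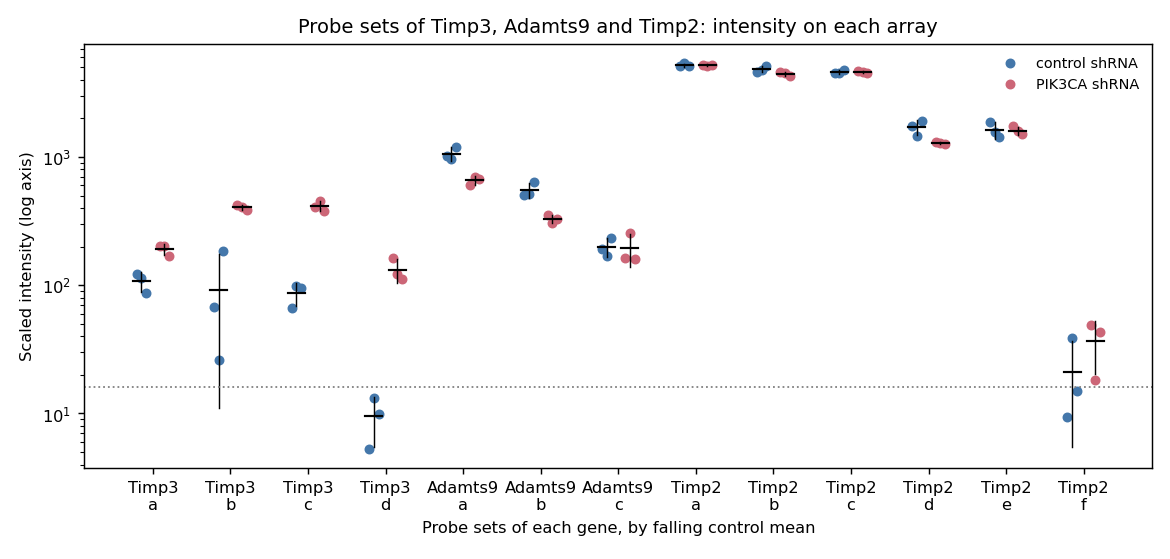
Scaled intensity (log axis) of each probe set of Timp3 (4), Adamts9 (3) and Timp2 (6) on the 6 arrays, lettered by falling control mean, with mean and SD; the dotted line marks the pseudocount of 16. All 4 Timp3 probe sets are higher with PIK3CA shRNA, 2 of the 3 Adamts9 probe sets are lower, and none of the Timp2 probe sets passed.

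Of the 4 collagenase genes, Mmp13 rose. Its product, collagenase 3, cuts fibrillar collagen. Mmp13 read 377, 370 and 381 on the control arrays and 1286, 1317 and 1141 on the PIK3CA shRNA arrays. The control arrays lay close together, and each PIK3CA shRNA array was far above them. The mean went from 376 ± 5.51 to 1248 ± 94.0 (SD, n = 3 each), 3.32 times control. Its change of 1.69 (standard error 0.07, limma adjusted p = 0.000318) had rank 119 among all genes, and it passed in each of the 15 alternatives run at the same threshold. Mmp8, the neutrophil collagenase, was at 0.07 (interval -0.73 to 0.88), and the rodent collagenase genes Mmp1a and Mmp1b were both at 0.12 (intervals -0.33 to 0.58 and -0.49 to 0.73). Mmp1a and Mmp1b are close paralogs, so whether their probe sets separate them is uncertain.

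The stromelysin genes moved in opposite directions. Mmp10, stromelysin 2, cuts proteoglycans and non-fibrillar collagen and can activate other MMPs. It read 297, 333 and 270 in control and 606, 599 and 654 in PIK3CA shRNA cells. Each PIK3CA shRNA array was above every control array, and the mean went from 300.0 ± 31.4 to 619 ± 29.7 (SD, n = 3 each), 2.06 times control. Its change was 1.01 (standard error 0.09, limma adjusted p = 0.00343).

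Mmp3, stromelysin 1, has a similar range of substrates. It read 132, 122 and 129 in control and 98.9, 88.5 and 73.9 in PIK3CA shRNA cells. Each PIK3CA shRNA array was lower than every control array, and the mean fell from 127 ± 5.02 to 87.1 ± 12.5 (SD, n = 3 each), 68.3% of control. The change of -0.48 (standard error 0.10) had a limma adjusted p of 0.0401, the closest to the threshold of the 7. The call was lost without any array but PIK3CA shRNA replicate 1: the adjusted p was 0.120, 0.0998 and 0.116 without control replicates 1, 2 and 3, and 0.0975 and 0.0756 without PIK3CA shRNA replicates 2 and 3. In the fit of all probe sets it was 0.0706. Mmp11, stromelysin 3, was at -0.09 (interval -0.31 to 0.13) and did not pass.

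All 3 Mmp genes that passed lie in the chromosome 9 cluster, whose 9 measured genes run in the order Mmp13, Mmp12, Mmp1b, Mmp3, Mmp1a, Mmp10, Mmp8, Mmp20 and Mmp7. Genes that did not pass lie between those that did. The 6 that did not pass ran from 0.01 (Mmp12, macrophage elastase) to 0.35 (Mmp7, matrilysin), and Mmp12 and Mmp1b had means below the pseudocount in both groups. AP-1 letters were in a window of Mmp13 and Mmp10, which rose, of Mmp3, which fell, and of 5 of the 6 genes that did not pass.

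**Figure D4:**
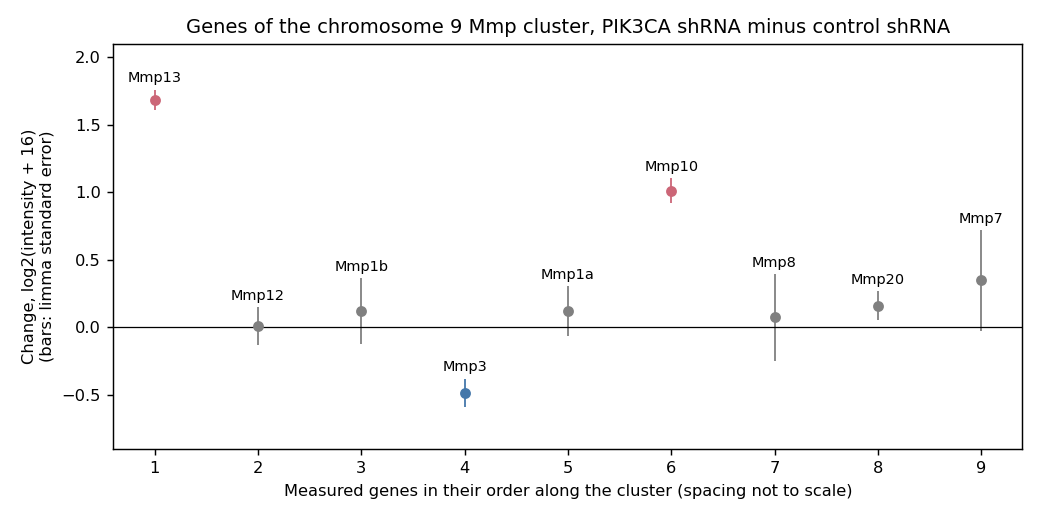
Change of the 9 measured Mmp genes of the chromosome 9 cluster in log2(intensity + 16), PIK3CA shRNA minus control shRNA, in their order along the chromosome (spacing not to scale), with the limma standard error as bars; red passed as higher, blue as lower, grey did not pass. Mmp13 at 1.69 and Mmp10 at 1.01 stand above the others, and Mmp3 lies at -0.48.

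No other Mmp gene passed by limma on its brightest probe set, and 0 of them had an unadjusted p under 0.05 there. The gelatinases cut denatured collagen and basement membrane collagen. Mmp2 read 175, 185 and 177 in control and 172, 234 and 142 in PIK3CA shRNA cells. The groups overlapped, and the change was 0.00 (interval -0.42 to 0.43). Mmp9 read 58.0, 18.8 and 17.0 in control and 13.0, 19.1 and 56.9 in PIK3CA shRNA cells. Each group had 1 high array, and the interval of -1.23 to 1.10 bounds little. Its other probe set was at -0.52, with control arrays at 13.2, 31.1 and 15.6 and PIK3CA shRNA arrays at 7.73, 12.2 and 5.89. These did not overlap but lay mostly below the pseudocount, and the probe set did not pass (adjusted p = 0.243). Mmp14, the membrane-type enzyme that activates MMP2, read 1799, 1682 and 2042 in control and 1867, 2008 and 1869 in PIK3CA shRNA cells, a change of 0.06 (interval -0.16 to 0.28). Its 3 probe sets ran from -0.11 to 0.06. Mmp16, also of the membrane type, was at -0.63 with a standard error of 0.30 and overlapping groups (limma adjusted p = 0.257). Mmp24 (0.18), Mmp17 (0.02), Mmp23 (0.04), Mmp20 (0.16) and Mmp19 (0.61, standard error 0.50) were the rest.

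Of the 9 Adam sheddase genes of somatic tissue 0 passed by limma, while 5 had an unadjusted p under 0.05, 3 higher and 2 lower (25.9% of all genes had such a p). The groups did not overlap for 5 of the 9 (55.6%, against 33.1% of all genes). These 9 genes were bright, with a median brightness percentile of 68.2, for which the 33.1% is not matched. Adam9, a widely expressed sheddase, read 7511, 7427 and 7329 in control and 8488, 8842 and 8723 in PIK3CA shRNA cells. Each PIK3CA shRNA array was higher, by little: the change was 0.23 (standard error 0.05, limma adjusted p = 0.0525). Adam17, which releases TNF and many ligands of the EGF receptor, was also at 0.23 (adjusted p = 0.163), and its 3 probe sets ran from 0.18 to 0.36. Adam33 was at 0.36 (adjusted p = 0.168), and its other probe set was at -0.25 with overlapping groups.

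On the lower side, Adam12 read 737, 780 and 941 in control and 630, 614 and 605 in PIK3CA shRNA cells. Both of its probe sets were lower on each PIK3CA shRNA array, and the change was -0.39 (standard error 0.10, limma adjusted p = 0.0700). Adam10, which cuts Notch receptors and E-cadherin, was at -0.24 (adjusted p = 0.191), with 3 of its 4 probe sets below 0. Adam19 (0.19), Adam28 (-0.03), Adam15 (-0.07) and Adam8 (-0.26) overlapped between groups. Adam9 passed in 3 alternatives (adjusted p from 0.000898 to 0.0271) and Adam12 in 4 (0.0267 to 0.0490).

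Of the other 19 Adam genes, Adam32, of the group of Adam genes best known from testis, passed. It read 3.22, 5.68 and 1.77 in control and 16.4, 24.2 and 19.8 in PIK3CA shRNA cells. The groups were apart, but the control values were below the pseudocount and the others barely above it. The change of 0.89 (standard error 0.11, limma adjusted p = 0.00990) became 2.29 with a pseudocount of 1 and 0.32 with a pseudocount of 64, so its size is not settled. Adam22, Adam23 and Adam11, which lack the catalytic zinc site and act in cell adhesion in the nervous system, were at 0.78, 0.48 and 0.23, none past the threshold. The other Adam11 probe set was at 0.88 without overlap and did not pass (adjusted p = 0.0833). That of Adam22 was at -0.27 with overlapping groups, and as the mean of its probe sets Adam22 was at 0.26 (limma adjusted p = 0.617). The remaining 15 ran from -0.50 (Adam7) to 0.49 (Adam6a), and 6 of them had means below the pseudocount in both groups. Adam4, at -0.07, was the brightest.

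Of the 15 Adamts genes, 1 fell and 0 rose by limma (6.67%, against 11.5% of all genes). At an unadjusted p under 0.05, 1 was higher and 2 were lower, against 25.9% of all genes in either direction. Adamts9, a proteoglycanase that cuts versican and aggrecan, read 1014, 966 and 1207 in control and 601, 704 and 671 in PIK3CA shRNA cells. Each PIK3CA shRNA array was below every control array. The mean fell from 1062 ± 128 to 659 ± 52.7 (SD, n = 3 each), 62.0% of control, a change of -0.67 (standard error 0.11, limma adjusted p = 0.0192). In the fit of all probe sets 2 of its 3 probe sets passed, at -0.67 and -0.71, and the other was at -0.05. As the mean of the 3 the change was -0.48 (adjusted p = 0.0691). The call was lost without control replicate 1 (0.0604), PIK3CA shRNA replicate 1 (0.0659) or PIK3CA shRNA replicate 3 (0.0675).

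The other 6 proteoglycanase genes did not pass. Adamts15 read 189, 164 and 180 in control and 143, 146 and 144 in PIK3CA shRNA cells, without overlap, a change of -0.27 (standard error 0.07, limma adjusted p = 0.0649, and 0.0286 with dim genes left out). Adamts4 was at 0.42, Adamts1 at 0.23, Adamts5 at 0.07, Adamts8 at -0.01 and Adamts20 at -0.09. Adamts3, a procollagen N-proteinase, was at -0.17. The remaining 7 ran from -0.05 (Adamts19) to 0.61 (Adamts6, adjusted p = 0.138, groups not overlapping), with Adamts16, the brightest, at 0.06. The other Adamts6 probe set was at -0.07, with overlapping groups and means below the pseudocount.

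By probe set, 9 of the 117 passed, 6 higher and 3 lower. This was 7.69%, against 4.95% of all probe sets, with 5.13% against 2.64% higher and 2.56% against 2.3% lower. All probe sets here include 9160 without a symbol and 932 with several, kinds that the members leave out, so the shares are not like for like. The 9 were 3 of Timp3, 2 of Adamts9, and 1 each of Mmp13, Mmp10, Adam32 and Reck. Of the 30 genes with several probe sets, 11 had them all on the same side of 0, and 0 had probe sets past the threshold in opposite directions.

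Other genes of extracellular proteolysis were read from 5 lists, chosen with earlier results of these data known. Median brightness percentiles were 47.4 for activators and inhibitors, 48.5 for matrix substrates and 36.0 for astacins and related genes. The transcription factors (74.0) and the ADAM10 and ADAM17 partners (77.1) were brighter. In a separate fit with dim genes left out, 23.2% of the 12509 genes kept passed, against 11.5% of all 18193 genes in the main fit. Shares matched for brightness were not computed. Of 21 measured activators and inhibitors of proteolysis at the cell surface, 6 rose and 1 fell (33.3%, against 11.5% of all genes), with a median change of 0.13. Plat, tissue plasminogen activator, read 143, 120 and 128 in control and 298, 332 and 350 in PIK3CA shRNA cells. The groups were far apart, and the change was 1.23 (limma adjusted p = 0.00203), but the mean of its probe sets, at 0.86, did not pass (0.149). Serpinb2, an inhibitor of plasminogen activators, rose by 1.08 (adjusted p = 0.00346) and the matricellular gene Sparc by 0.60 (0.0110). Thbs1, thrombospondin 1, fell by 0.91 (0.00346).

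The other rises in that list were Plau, urokinase (0.77), Lrp1, an endocytic receptor that clears proteases and their inhibitors (0.63), and Lcn2, which binds MMP9 (0.89). These 3 were named after their values were seen. Lcn2 was dim, at 29.9, 19.1 and 12.7 in control and 46.6, 51.4 and 53.2 in PIK3CA shRNA cells. With a pseudocount of 1 its call was lost (limma adjusted p = 0.0574). As the mean of its probe sets Plau was at 0.40 and did not pass (adjusted p = 0.125), and Lrp1 and Sparc were at 0.36 and 0.31 and passed (0.0363 and 0.0480). Without single arrays their limma calls were lost: for Plau without control replicates 1 or 3 or PIK3CA shRNA replicates 1 or 3 (adjusted p from 0.0551 to 0.0692), for Lrp1 without any but control replicate 3 (0.0569 to 0.0875), and for Lcn2 without any but control replicate 1 (0.0624 to 0.107).

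Of 18 measured transcription factors that act at Mmp promoters, 5 rose and 0 fell by limma (27.8%), with a median of 0.03 and, at an unadjusted p under 0.05, 6 higher and 2 lower. The AP-1 subunit genes Jun (0.70), Fosl1 (0.38), Fos (0.37) and Fosl2 (0.31, named after its value was seen) rose, as did Ets1 (0.44). Fosl1 read 1633, 1716 and 1686 in control and 2250, 2154 and 2163 in PIK3CA shRNA cells, without overlap. Jun read 100, 81.8 and 105 in control and 149, 179 and 167 in PIK3CA shRNA cells, also without overlap. As the mean of their probe sets Fosl2 was at 0.08 (adjusted p = 0.658) and Fosl1 at 0.40 (0.0747), neither past the threshold, while Jun was at 1.48 (0.000792). Other AP-1 genes of the list, named after their values were seen, did not pass: Jund was at -0.18 without overlap (adjusted p = 0.0968), Fosb at -0.19 and Junb at 0.02. The related genes Batf, which was dim, and Atf3 were at -0.42 and -0.19 with overlapping groups, and did not pass either. The calls of Fos and Fosl2 were lost without any 1 array (adjusted p from 0.0628 to 0.110), that of Fosl1 without control replicates 1 or 3 or PIK3CA shRNA replicates 1 or 3 (0.0511 to 0.0575), that of Jun without control replicate 1 or PIK3CA shRNA replicates 2 or 3 (0.0553 to 0.0681), and that of Ets1 without PIK3CA shRNA replicates 2 or 3 (0.0510 to 0.0585). The part of these factors in the Mmp13 and Mmp10 levels was not tested.

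Of 32 measured partners and shed proteins of ADAM10 and ADAM17, 8 rose and 2 fell (31.3%), with a median of 0.12. By median brightness percentile (77.1) this was the brightest of the 5 lists. In the separate fit with dim genes left out, 23.2% of the genes kept passed, but the 31.3% is from the main fit. Jag1, a Notch ligand, read 2303, 2499 and 2188 in control and 5162, 5226 and 5024 in PIK3CA shRNA cells. Each PIK3CA shRNA array was far above each control array, a change of 1.14 (limma adjusted p = 0.000963). Nrg1, a shed ligand of ERBB receptors, read 667, 724 and 584 in control and 272, 224 and 227 in PIK3CA shRNA cells, a change of -1.39 (adjusted p = 0.00261). The adhesion molecule genes Alcam and Cdh2 rose by 0.65 and 0.51, and Cdh2 did not pass as the mean of its probe sets (0.32, adjusted p = 0.0529). Of the 6 tetraspanin genes in the list, whose products escort ADAM10 and which were named after their values were seen, Tspan15 (0.58) and Tspan14 (0.51) rose. Tspan5, at -0.40 (adjusted p = 0.155), and Tspan10, at -0.35 (0.0948), did not pass, although both were lower without overlap, and Tspan33 (0.05) and Tspan17 (-0.06) overlapped between groups. The Tspan15 call was lost without control replicate 2 (0.0513) and the Tspan14 call without any array but PIK3CA shRNA replicate 2 (0.0571 to 0.0685).

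Of 22 measured matrix substrates, 2 rose and 2 fell (18.2%), with a median of -0.04. Nid1, the basement membrane protein nidogen 1, read 113, 109 and 118 in control and 1904, 1992 and 1947 in PIK3CA shRNA cells, a change of 3.93 (limma adjusted p = 3.83e-05), or 2.35 as the mean of its probe sets (0.000351). Lamb3 rose by 0.34, a call lost without any 1 array (0.0598 to 0.0987). Dcn, decorin, fell by 0.75 (0.00920), or by 0.33 as the mean of its probe sets (0.0439). Col5a1 fell by 0.45, a call lost without control replicates 1 or 3 (0.0524 and 0.0501) and as the mean of its probe sets (0.0924). Of 14 astacins, ADAMTS-like and related genes, 0 rose and 1 fell by limma (7.14%), with 1 higher and 2 lower at an unadjusted p under 0.05. The fall was in Pcolce, the enhancer of procollagen C-proteinase, which read 5295, 5380 and 5296 in control and 3991, 3961 and 3955 in PIK3CA shRNA cells, a change of -0.42 (adjusted p = 0.00815).

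**Figure D5:**
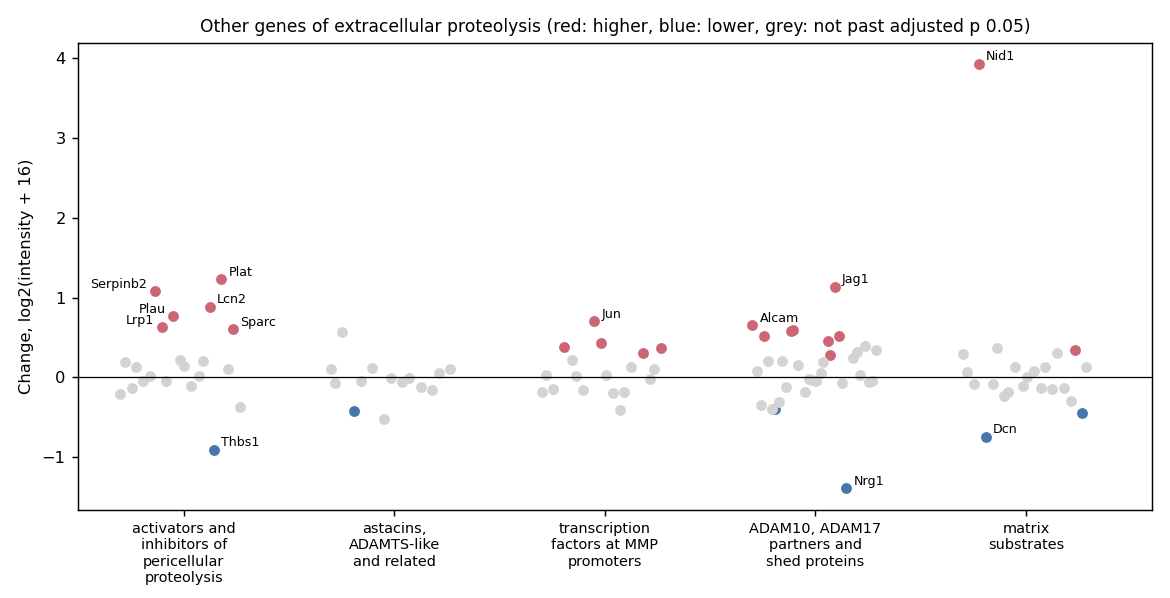
Change of the measured genes of the 5 other lists in log2(intensity + 16), PIK3CA shRNA minus control shRNA, with 1 point per gene (red higher, blue lower, grey not past the limma threshold); names are given for genes past the limma threshold with a change over 0.6 in size. Nid1, Plat, Jag1 and Serpinb2 lie above 1, and Nrg1 lies below -1.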

How the data were processed

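RNA of 6 samples was hybridised to Affymetrix mouse arrays, 1 array each, per the labels' protocols. The authors deposited linear intensities. All arrays share their minimum and maximum, and their normalization method is not stated in the labels or the files. No detection calls were used, and 15% of values were below 16. Precision is limited by the number of arrays.

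Each array was multiplied to give all the same median, and log2(intensity + 16) was used, without 64 control probe sets. GEO's platform annotation gave 34945 probe sets 1 symbol, 932 several and 9160 none, and 5 that name a member together with another gene were not used. Their changes ran from -0.94 to 1.25, and none passed the limma fit of all probe sets. The highest, without overlap, names 2 members, Adam6a and Adam6b (adjusted p = 0.138). All 66 members matched the RefSeq gene table. Genes (brightest probe set) and probe sets were fitted with limma 3.58.1 in R 4.3.3 (lmFit, eBayes, no replicate block), which was tested on simulated data. Intervals are limma's at 95%.

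The rule named members past the threshold, Mmp13, Mmp10, Timp3, the brightest member of each role, members with opposite calls, Pik3ca, and up to 4 genes of each other list by adjusted p. Other single genes were named after their values were seen. The members and lists were chosen with earlier results of these data known. The planned comparison of member proteins was not run. Alternatives varied the block, normalization, pseudocount, dim filter, probe set choice, variance model, threshold and arrays. Figures were drawn with matplotlib 3.10.9.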

Additional observations from a re-analysis of the deposited data

How the results depend on the processing

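No called value changed sign in any alternative. Quantile normalization and upper quartile scaling called the same 7 members. The count of 2092 genes became 410 with the replicate block, 3192 with a variance trend over intensity and a robust prior, 635 at an adjusted p of 0.01 and 953 to 1138 with 1 array left out. The 4 higher members were 3 with the block (Mmp10 at a limma adjusted p of 0.0505), and 4 or 5 in every other alternative. With dim genes left out they were not the same 4: Adam32 was not tested, and Adam9 passed. The 3 lower members became 1 with the block, 5 with dim genes left out (31 members tested), 0 at an adjusted p of 0.01 (6 at an unadjusted p under 0.05), and 0 to 2 with 1 array left out, the 0 being without control replicate 1 (6 unadjusted). The 6 higher member probe sets became 2 with the block. The 3 lower ones became 0 with the block (10 unadjusted), 1 with a pseudocount of 1, 5 with the trend, 0 at an adjusted p of 0.01 (9 unadjusted) and 0 to 1 with 1 array left out (7 to 12 unadjusted). The 27 other pathway genes became 5 with the block, 10 at an adjusted p of 0.01 and 15 to 19 with 1 array left out. Mmp3 passed in 6 of 15 alternatives, Adamts9 in 10 and Reck in 11. Arrays with the same replicate number did not deviate together (correlations of 0.0586, -0.00743 and -0.0234), so the numbers were not taken to pair the samples. Causes of these differences were not tested, and signal over background cannot be judged for the dim genes.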
